A study of Oryza sativa with 24 samples.

Results

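Transcripts of nuclear genes for photosynthesis were followed in young inflorescences of rice, in the tap mutant and in the wild type (WT). The set was a list of 40 locus identifiers in 5 functional classes: 12 light-harvesting proteins, 9 photosystem I subunits, 5 photosystem II subunits, 5 electron transport genes and 9 Calvin cycle genes. It was chosen with earlier results of these data known. Of these 40 loci, 39 had a row among the 26480 loci of the count table, and 38 had values in all libraries and passed the low-count filter. LOC_Os09g30340, a photosystem I locus, is not analysed here. LOC_Os07g36080, a photosystem II locus, had values in the low-temperature libraries alone and is described with those.

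RNA came from inflorescences 3 mm or 2 mm long, of rice plants of the line 9522 grown under high or low temperature. There were 8 groups of 3 libraries: tap and WT at high temperature and 3 mm, tap and WT at high temperature and 2 mm, tap and WT at low temperature and 3 mm, and tap and WT at low temperature and 2 mm. The sources used here give neither the degrees and duration of the temperatures nor the lesion in tap. The mutant is called tap in the genotype labels but ild in the titles, and the series title links the TAP gene to panicle and spikelet development at high temperature. Whether the 3 libraries of a group are of different plants is not stated, so the p-values cover the spread between libraries alone, and part of that may be technical.

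Light-harvesting proteins bind chlorophyll in the thylakoid membrane and pass absorbed energy to both photosystems. Photosystem II takes electrons from water, a chain of carriers passes them on to photosystem I, and the energy and reducing power gained are used by the Calvin cycle to fix carbon dioxide. Their nuclear genes are best known from green leaves, where many of them are switched on together as chloroplasts mature, whereas a rice inflorescence of this length is still wrapped in leaf sheaths. The deposited identifiers could not be paired with gene names, so each locus is described by its functional class. The exception is LOC_Os12g23200, listed as PsaL, a membrane subunit of photosystem I. For the same reason genes of chlorophyll synthesis, regulators of greening and markers of the inflorescence could not be looked up, and the labelled tissue was not checked against markers.

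Library totals lay between 19819257 and 21305381 counts in all 24 libraries. Levels are given as counts per 1000000 (CPM) with library sizes scaled by the TMM method, in the order of replicates 1, 2 and 3. They are not divided by transcript length, so levels are compared between groups and not between loci. Differences are log2 values from edgeR's quasi-likelihood test over all 23658 loci that passed the filter, and a locus was called, that is, said to have risen or fallen, where the Benjamini-Hochberg adjusted p was under 0.05. In bulk RNA, fewer cells of a type and less RNA per cell cannot be told apart.

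The summed level of the 38 tested loci was highest in 3 mm tap inflorescences at high temperature. It averaged 727 ± 101 CPM there, against 451 ± 37 CPM in WT (SD, n = 3 each). At 2 mm and high temperature the sums were 583 ± 82.6 CPM in tap, against 421 ± 34 CPM in WT. In both lengths the 3 tap libraries lay above the 3 WT libraries. At low temperature the order of the means was the opposite, with 513 ± 104 CPM in 3 mm tap, against 572 ± 159 CPM in 3 mm WT, and 287 ± 52.9 CPM in 2 mm tap, against 355 ± 53.1 CPM in 2 mm WT, and the libraries of tap and WT overlapped. A score summed over chosen loci was given no test.

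At high temperature each of the 5 classes had a higher summed level in tap than in WT, with no overlap between libraries in either length. The ratio was highest for the Calvin cycle class, which summed to 67.3 ± 8.70 CPM in 3 mm tap, against 26.3 ± 3.71 CPM in 3 mm WT (ratio 2.55), and to 57.9 ± 5.26 CPM in 2 mm tap, against 25.2 ± 4.87 CPM in 2 mm WT (ratio 2.29). The ratios at 3 mm were 1.81 for photosystem II, 1.81 for electron transport, 1.63 for photosystem I and 1.44 for the light-harvesting proteins. At 2 mm they were 1.59, 1.38, 1.33 and 1.27 in the same order. The light-harvesting sum depended on LOC_Os01g52240, the 1 member that fell in tap at high temperature. Without it, a choice made after the data were seen, the light-harvesting ratio of tap to WT at high temperature was 1.79 at 3 mm and 1.49 at 2 mm. LOC_Os11g13890, of high level and not called at high temperature, stayed in that sum. Sums weight loci by their level, and medians over loci ranked the classes differently. Light-harvesting and Calvin cycle loci both had a median log2 difference of 1.19 at 3 mm. Those of electron transport, photosystem II and photosystem I were 1.04, 0.83 and 0.62. Medians at 2 mm were 1.10, 1.01, 0.51, 0.65 and 0.75, with the classes in that order.

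**Figure D1:**
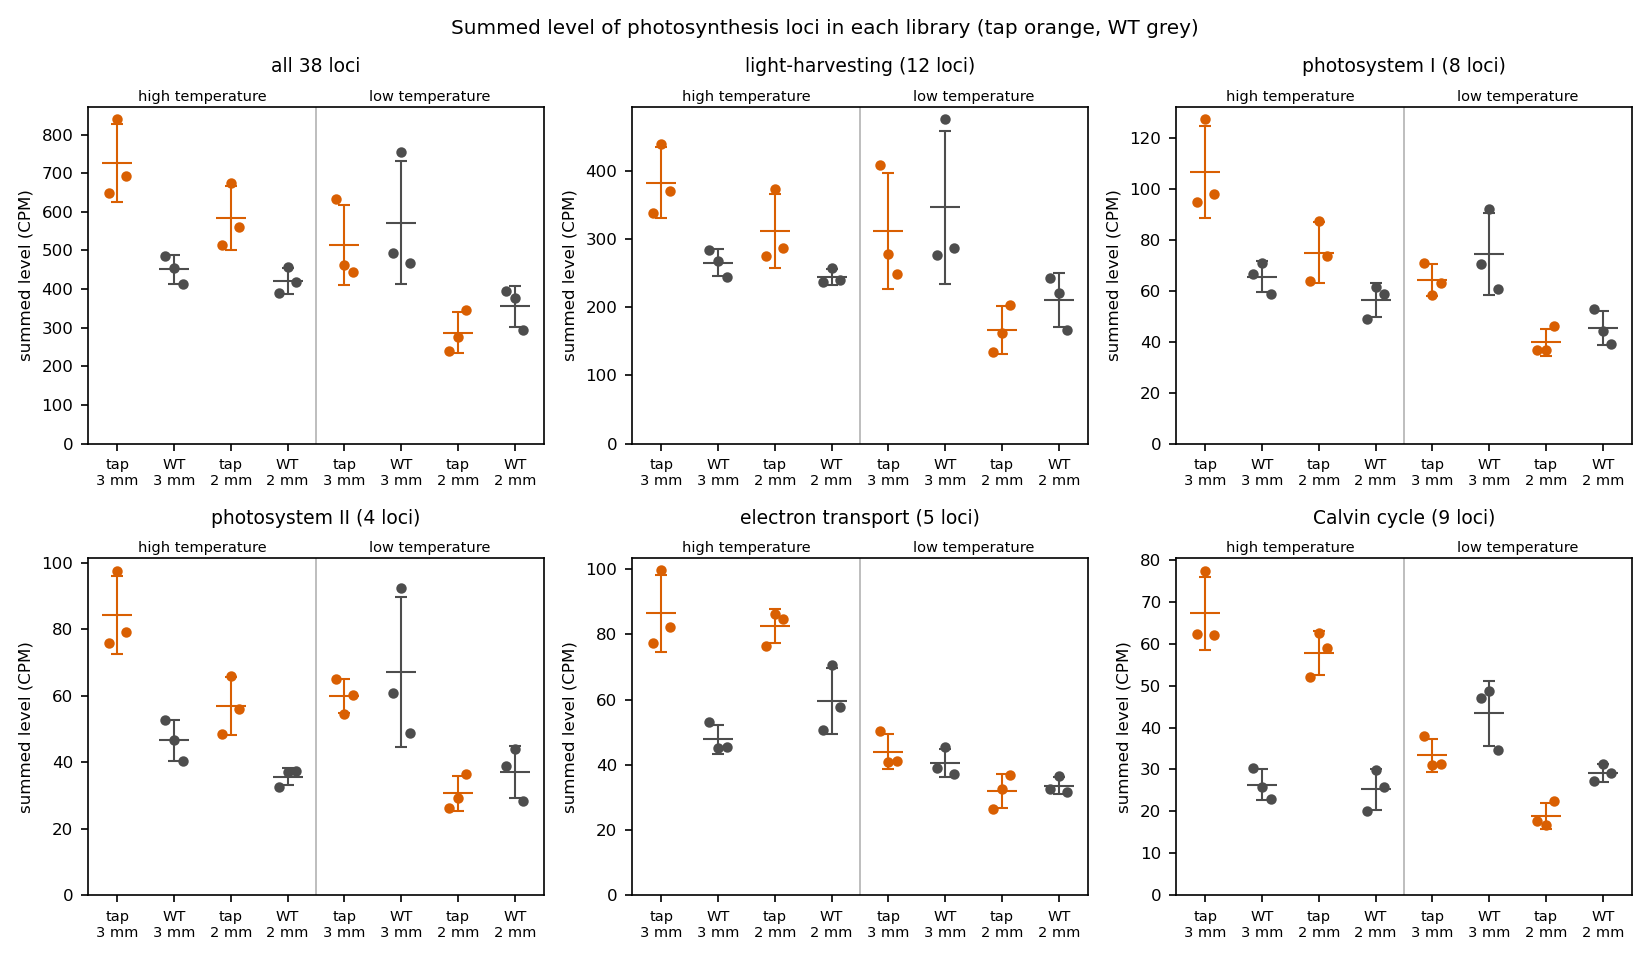
Summed CPM of the tested loci of each class in each of the 24 libraries (points, with the mean and SD of each group as bars), on axes that start at 0. At high temperature the tap libraries lie above the WT libraries in all 5 classes at both lengths, while at low temperature they overlap in all classes except the Calvin cycle at 2 mm, where tap lies below WT. In that comparison LOC_Os03g03720 averaged 5.17 CPM in tap, against 18.4 CPM in WT. Of the 9 Calvin cycle loci, 5 had positive log2 differences there, and the median was 0.17.

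The comparison of tap with WT at high temperature asks how the mutant differs at the temperature for which the series title gives the gene a role. At 3 mm, 25 of the 38 loci rose in tap, 18 of them more than 2-fold, and 1 fell. Of all loci tested, 37.1% were called in this comparison, 19.3% as higher, with 6.43% higher by more than 2-fold, and 17.8% as lower. The median log2 difference of the 38 loci was 1.07, against 0.00 over all loci. At 2 mm, 20 loci rose, 15 of them more than 2-fold, and 1 fell, where 37% of all loci were called, 18.4% as higher, with 5.81% higher by more than 2-fold, and 18.6% as lower. The median of the 38 loci was 0.89 at 2 mm.

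The 2 lengths share no libraries. Of the 20 loci that rose at 2 mm, 19 also rose at 3 mm, which is 95% of the list at 2 mm and 76% of that at 3 mm. The sharing of calls between lengths was not computed over all loci, so these shares have no background. All 3 tap libraries lay above all 3 WT libraries for 29 of the 38 loci at 3 mm and for 23 at 2 mm, where 23% and 21.6% of all loci did so. With each library left out in turn, the number that rose was 20 to 25 in 3 mm and 17 to 20 in 2 mm inflorescences. The low end came in both cases without tap replicate 2, the library with the highest values of most of these loci in its group.

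Among the light-harvesting loci, the same 8 of 12 rose in tap at both lengths. The largest difference at 3 mm was that of LOC_Os07g37550, which had 22.3, 37.1 and 29.9 CPM in tap, against 7.56, 7.02 and 7.07 CPM in WT (log2 2.04, SE 0.25, adjusted p = 2.19e-06), a 4.11-fold rise. Its levels at 2 mm were 19.7, 30.3 and 21.3 CPM in tap, against 9.71, 11.4 and 12.2 CPM in WT (log2 1.09, SE 0.24, adjusted p = 0.00133). The lowest tap library was above the highest WT library at both lengths. LOC_Os06g21590 rose most at 2 mm, to 10.6, 15.1 and 14.8 CPM in tap, against 3.02, 2.66 and 3.65 CPM in WT (log2 2.12, SE 0.33, adjusted p = 5.9e-05), and its 3 mm values were 16.2, 24.6 and 18.9 CPM in tap, against 7.76, 4.99 and 6.56 CPM in WT (log2 1.62, SE 0.31, adjusted p = 0.000336). Its groups did not overlap either.

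The other light-harvesting loci that rose at both lengths were LOC_Os03g39610, LOC_Os07g37240, LOC_Os04g38410, LOC_Os07g38960, LOC_Os02g10390 and LOC_Os08g33820, with log2 values between 1.00 and 1.84 at 3 mm, and between 0.94 and 1.61 at 2 mm. LOC_Os08g33820 was near the threshold at 3 mm, with an adjusted p of 0.0498. LOC_Os11g13890 was not called at high temperature. It had 94.6, 98.2 and 94.5 CPM in tap, against 97.8, 88.5 and 77.5 CPM in WT at 3 mm (log2 0.12, adjusted p = 0.442), and 67.5, 92.1 and 58.4 CPM in tap, against 75.2, 98.2 and 81.6 CPM in WT at 2 mm (log2 -0.23, adjusted p = 0.141). Its tap and WT libraries overlapped at both lengths. LOC_Os09g17740, not called, had log2 differences of 1.14 at 3 mm and 0.96 at 2 mm, and LOC_Os01g41710, not called, of 1.23 and 0.33.

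LOC_Os01g52240 was the light-harvesting locus that went the other way. It had 83.4, 67.6 and 76.3 CPM in tap, against 90.5, 94.2 and 97.0 CPM in WT at 3 mm (log2 -0.31, SE 0.10, adjusted p = 0.0169), and 71.4, 68.7 and 63.4 CPM in tap, against 91.3, 78.6 and 72.8 CPM in WT at 2 mm (log2 -0.25, SE 0.10, adjusted p = 0.0494). The WT libraries lay above the tap libraries at both lengths, by a small margin at 2 mm. The call at 2 mm was lost under other scalings, without the low-count filter, with DESeq2 and with the compared libraries alone (adjusted p from 0.0623 to 0.124). It was also lost without tap replicate 1 (0.0538), 2 (0.0995) or 3 (0.231) or WT replicate 1 (0.362) or 2 (0.0986), and that at 3 mm was lost without tap replicate 2 (0.0802) or WT replicate 3 (0.0569).

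Of the 8 photosystem I loci, 4 rose in tap at each length, and 3 of them at both. LOC_Os05g48630 had 12.3, 17.6 and 10.8 CPM in tap, against 6.29, 4.47 and 4.59 CPM in WT at 3 mm (log2 1.41, SE 0.25, adjusted p = 6.17e-05) and 5.15, 8.44 and 7.36 CPM in tap, against 1.79, 2.41 and 2.72 CPM in WT at 2 mm (log2 1.59, SE 0.28, adjusted p = 4.51e-05). LOC_Os03g56670 had 8.43, 9.99 and 8.49 CPM in tap, against 4.16, 4.63 and 4.08 CPM in WT at 3 mm (log2 1.06, SE 0.20, adjusted p = 9.93e-05), and 4.91, 8.01 and 5.54 CPM in tap, against 2.61, 3.17 and 2.88 CPM in WT at 2 mm (log2 1.09, SE 0.21, adjusted p = 0.000176). Neither locus had overlapping groups. LOC_Os04g33830 was the third, with log2 1.37 at 3 mm and 0.83 at 2 mm.

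LOC_Os08g44680 rose at 3 mm, where it had 46.4, 59.7 and 50.7 CPM in tap, against 33.4, 37.6 and 30.5 CPM in WT (log2 0.63, SE 0.17, adjusted p = 0.00446). At 2 mm its values were 29.2, 43.1 and 26 CPM in tap, against 27.2, 38 and 32.3 CPM in WT, and the groups overlapped (log2 0.01, adjusted p = 0.983). At low temperature it was not called, with 23.3, 22.8 and 26.4 CPM in tap, against 29.5, 32.9 and 24.7 CPM in WT at 3 mm and 11.2, 13.6 and 16.6 CPM in tap, against 21.9, 19.1 and 16.5 CPM in WT at 2 mm. LOC_Os07g25430 was called at 2 mm alone (log2 0.96, against 0.38 at 3 mm), and whether its difference depended on length was not tested. The locus listed as PsaL, LOC_Os12g23200, was not called at either length. It had 1.39, 3.26 and 2.33 CPM in tap, against 2.03, 1.35 and 1.60 CPM in WT at 3 mm (log2 0.47, adjusted p = 0.308) and 0.674, 2.16 and 0.906 CPM in tap, against 0.818, 1.05 and 0.976 CPM in WT at 2 mm (log2 0.38, adjusted p = 0.493), with wide spread between the tap libraries.

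Photosystem II was represented by 4 tested loci. LOC_Os07g04840 had 57.6, 72.0 and 60.1 CPM in tap, against 39.9, 34 and 29.8 CPM in WT at 3 mm (log2 0.87, SE 0.19, adjusted p = 0.00102) and 34.7, 47.2 and 42.0 CPM in tap, against 23.4, 30.4 and 28.4 CPM in WT at 2 mm (log2 0.59, SE 0.19, adjusted p = 0.0193), and rose at both lengths with no overlap. LOC_Os01g31690 rose too, with log2 0.78 at 3 mm and 1.02 at 2 mm. The other 2 had few counts. LOC_Os01g64960 was called as higher at 3 mm on 33 counts in the 3 tap libraries and 2 counts in the 3 WT libraries, a ratio of 16.7 with an exact 95% counting interval of 4.27 to 144.

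In the electron transport class, 4 of 5 loci rose at 3 mm and 2 at 2 mm. LOC_Os06g01210 had 8.87, 12.6 and 8.85 CPM in tap, against 3.86, 3.43 and 2.84 CPM in WT at 3 mm (log2 1.58, SE 0.21, adjusted p = 6.11e-07) and 6.16, 7.49 and 7.94 CPM in tap, against 2.86, 2.21 and 2.57 CPM in WT at 2 mm (log2 1.5, SE 0.22, adjusted p = 3.51e-06). LOC_Os06g01850 rose at both lengths as well (log2 0.59 at 3 mm and 0.71 at 2 mm). LOC_Os08g01380 had 21.4, 39.8 and 28.6 CPM in tap, against 12.1, 10.6 and 12.4 CPM in WT at 3 mm (log2 1.35, SE 0.23, adjusted p = 9.07e-05). At 2 mm it had 26.9, 27.6 and 32 CPM in tap, against 17, 30.2 and 22.7 CPM in WT, where 1 WT library lay within the range of tap (log2 0.31, adjusted p = 0.301). LOC_Os02g01340 rose at 3 mm (log2 1.04). LOC_Os07g37030 was not called at high temperature, with 16.6, 21.2 and 18.1 CPM in tap, against 18, 13.1 and 13.5 CPM in WT at 3 mm (log2 0.32, adjusted p = 0.0858) and 19.9, 20.5 and 23.8 CPM in tap, against 15, 21 and 18.9 CPM in WT at 2 mm (log2 0.23, adjusted p = 0.229).

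The Calvin cycle class held the largest difference at 3 mm among members of at least 5 CPM. LOC_Os04g38600 had 10.7, 17.4 and 13.9 CPM in tap, against 3.04, 2.55 and 3.46 CPM in WT (log2 2.21, SE 0.30, adjusted p = 4.81e-06), a 4.62-fold rise with no overlap. Its 2 mm values were 15.7, 13.8 and 16.2 CPM in tap, against 5.01, 10.8 and 6.73 CPM in WT (log2 1.01, SE 0.27, adjusted p = 0.00569). LOC_Os03g03720 had 30.2, 31 and 26.4 CPM in tap, against 15.9, 15.5 and 12.5 CPM in WT at 3 mm (log2 1.00, SE 0.16, adjusted p = 1.06e-05) and 18, 27.1 and 21.2 CPM in tap, against 5.37, 7.59 and 7.86 CPM in WT at 2 mm (log2 1.67, SE 0.17, adjusted p = 5.16e-09), and every tap library lay above every WT library.

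LOC_Os11g47970 and LOC_Os12g17600, also of the Calvin cycle, rose at both lengths, with log2 values of 2.01 and 1.15 at 3 mm and of 1.12 and 1.01 at 2 mm. LOC_Os12g19381 rose at 3 mm (log2 0.98, adjusted p = 0.0296). LOC_Os02g47020 was called as higher at 3 mm on 23 counts in tap and 1 count in WT, a ratio of 23.3 with an exact 95% counting interval of 3.78 to 959. LOC_Os12g19470, LOC_Os03g16050 and LOC_Os04g16680, all below 1 CPM on average over the 24 libraries, were not called at high temperature, and the first 2 had positive and the third negative differences at both lengths.

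**Figure D2:**
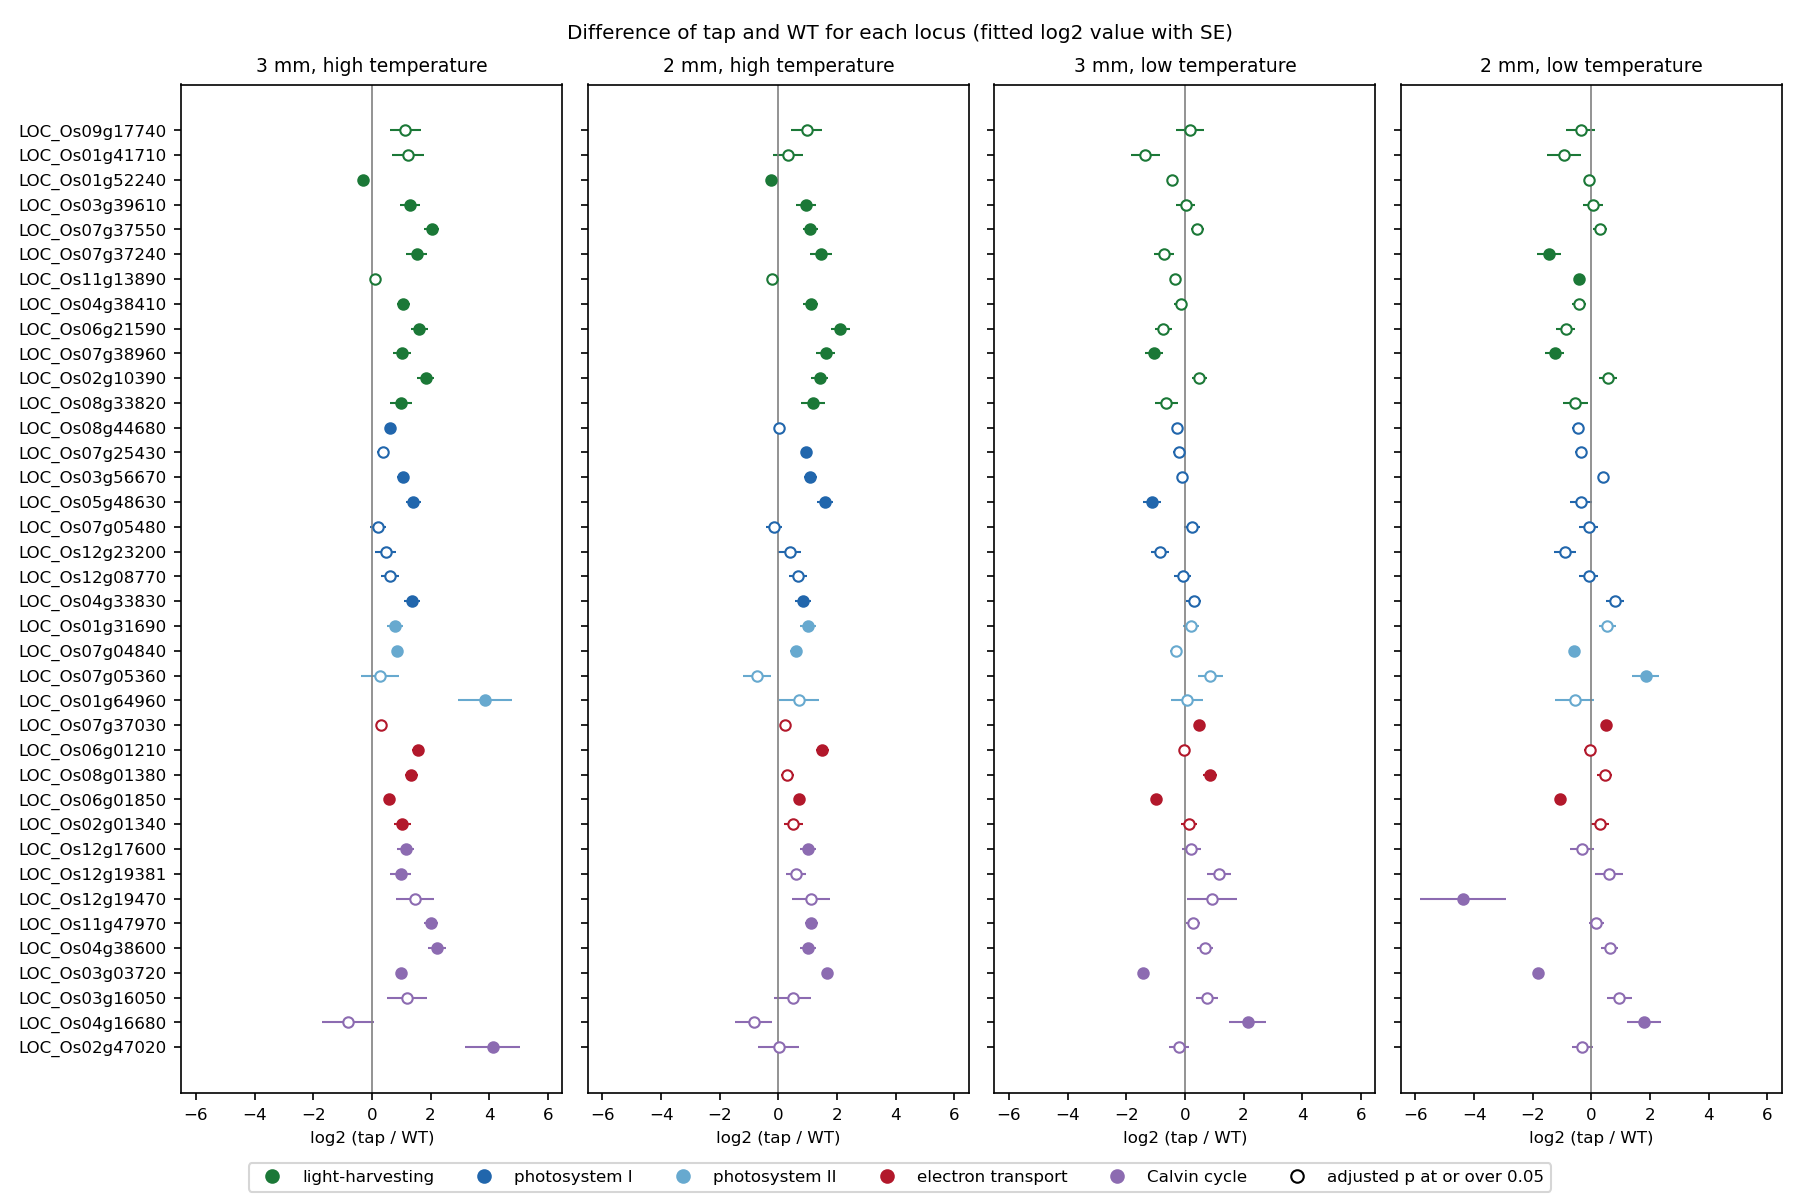
Fitted log2 differences of tap minus WT (points, with SE as bars) for each of the 38 tested loci in the 4 comparisons, ordered by class, filled where the adjusted p was under 0.05. At high temperature most points lie right of 0, with medians of 1.07 at 3 mm and 0.89 at 2 mm, while at low temperature they lie on both sides of 0. The leftmost point, LOC_Os12g19470 at 2 mm and low temperature, rests on a group with 0 counts, so its size depends on the prior count.

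The same comparison at low temperature gave fewer calls than that at high temperature. At 3 mm, 3 of the 38 loci rose in tap and 4 fell, where 11.7% of all loci were called, 5.52% as higher and 6.18% as lower, and the median log2 difference was 0.00. At 2 mm, 3 rose and 7 fell, where 15% of all loci were called, 7.67% as higher and 7.3% as lower, and the median was -0.20. These shares of 18.4% and 26.3% of the members included LOC_Os07g38960, LOC_Os06g01850 and LOC_Os03g03720, which fell at both lengths, and LOC_Os07g37030 and LOC_Os04g16680, which rose at both. The shared loci made up 75% of those that fell at 3 mm and 42.9% of those that fell at 2 mm, with no share over all loci computed. These counts moved with single libraries. At 3 mm the number that rose was 0 without tap replicate 1 or WT replicate 1 and 6 without WT replicate 2, and the number that fell was 2 without tap replicate 2. At 2 mm the number that rose was 1 without tap replicate 3 or WT replicate 2, and the number that fell was 2 without tap replicate 1, 3 without tap replicate 2 or WT replicate 2 and 4 without WT replicate 1.

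LOC_Os03g03720, of the Calvin cycle, had the largest fall among members of at least 5 CPM at both lengths. It had 11.4, 9.73 and 8.48 CPM in tap, against 29, 28.7 and 22.3 CPM in WT at 3 mm (log2 -1.43, SE 0.16, adjusted p = 1.53e-07), which is 2.70-fold lower in tap. At 2 mm it had 4.91, 4.48 and 6.12 CPM in tap, against 15.9, 21 and 18.2 CPM in WT (log2 -1.83, SE 0.17, adjusted p = 4.76e-09), which is 3.56-fold lower. No tap library reached the lowest WT library. LOC_Os06g01850, of electron transport, had 6.08, 5.95 and 6.09 CPM in tap, against 12.9, 13 and 9.74 CPM in WT at 3 mm (log2 -0.98, SE 0.15, adjusted p = 3.37e-05) and 5.84, 5.81 and 7.0 CPM in tap, against 11, 14.4 and 13.9 CPM in WT at 2 mm (log2 -1.07, SE 0.15, adjusted p = 5.98e-06), again with no overlap. Both falls of LOC_Os03g03720 kept their call under every setting tried, with adjusted p of at most 8.51e-06.

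The third locus to fall at both lengths was LOC_Os07g38960, a light-harvesting locus. It had 9.91, 4.20 and 5.72 CPM in tap, against 12.6, 19.2 and 9.41 CPM in WT at 3 mm (log2 -1.05, SE 0.30, adjusted p = 0.0245) and 2.90, 3.66 and 4.76 CPM in tap, against 10.2, 8.63 and 8.21 CPM in WT at 2 mm (log2 -1.25, SE 0.32, adjusted p = 0.0102). A single tap library lay within the range of WT at 3 mm, and there was no overlap at 2 mm. The call at 3 mm was lost without tap replicate 2 (adjusted p 0.114) or 3 (0.105) or WT replicate 2 (0.132), and with the 6 compared libraries alone (0.153). LOC_Os07g37240, also light-harvesting, fell at 2 mm, where it had 1.31, 1.69 and 3.13 CPM in tap, against 6.08, 6.53 and 4.17 CPM in WT (log2 -1.45, SE 0.40, adjusted p = 0.0176), and was not called at 3 mm (log2 -0.72). Its call at 2 mm was lost without tap replicate 1 (adjusted p 0.0924) or 2 (0.0749) or WT replicate 1 (0.0557) or 2 (0.0672).

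The remaining falls were single ones. LOC_Os11g13890 fell at 2 mm, with 59.8, 60.2 and 65.2 CPM in tap, against 84.8, 84.8 and 76.2 CPM in WT (log2 -0.41, SE 0.12, adjusted p = 0.0179), and had 79.0, 73.8 and 70.7 CPM in tap, against 89.4, 103 and 90.2 CPM in WT at 3 mm, not called (log2 -0.34). LOC_Os07g04840, of photosystem II, fell at 2 mm with 17.8, 18.9 and 24.4 CPM in tap, against 31.1, 36.8 and 23.3 CPM in WT (log2 -0.58, SE 0.19, adjusted p = 0.0486), where 1 tap library lay above the lowest WT library. Its values overlapped at 3 mm too, where it was not called (45.5, 40.4 and 40.7 CPM in tap, against 49.1, 68.8 and 38.7 CPM in WT). LOC_Os05g48630, of photosystem I, fell at 3 mm with 1.52, 1.20 and 1.55 CPM in tap, against 2.48, 4.34 and 2.51 CPM in WT (log2 -1.12, SE 0.30, adjusted p = 0.0135). LOC_Os12g19470, of the Calvin cycle, had 0 counts in all 3 tap libraries at 2 mm and 8 counts over the WT libraries. Against a floor for the group of 3 counts it was 2.61-fold lower, a lower bound if the 8 counts are taken as exact.

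LOC_Os07g36080, the photosystem II locus with values at low temperature alone, was tested in a model of the 12 low-temperature libraries, chosen after the data were seen. It had 8.94, 9.04 and 8.25 CPM in tap, against 11.5, 17.1 and 13.9 CPM in WT at 3 mm (log2 -0.69, SE 0.16, adjusted p = 0.0042) and 6.12, 4.21 and 5.65 CPM in tap, against 9.67, 9.49 and 6.62 CPM in WT at 2 mm (log2 -0.70, SE 0.17, adjusted p = 0.0057). It fell in tap at both lengths, with no overlap between libraries, and is not counted among the 38 loci.

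Loci that rose in tap at low temperature belonged to other classes than light harvesting. LOC_Os07g37030, of electron transport, had 19.3, 13.8 and 14.3 CPM in tap, against 10.6, 11.4 and 12.1 CPM in WT at 3 mm (log2 0.48, SE 0.15, adjusted p = 0.0323) and 11, 12.5 and 13.5 CPM in tap, against 9.53, 8.95 and 7.99 CPM in WT at 2 mm (log2 0.49, SE 0.15, adjusted p = 0.0284). These rises of 1.39-fold and 1.40-fold kept the groups apart. The call at 3 mm was lost without tap replicate 1 (adjusted p 0.248) or WT replicate 1 (0.126) or 2 (0.0739), and that at 2 mm without tap replicate 2 (0.0753) or 3 (0.126) or WT replicate 2 (0.0706) or 3 (0.126). LOC_Os08g01380, of the same class, had 13.1, 9.96 and 8.48 CPM in tap, against 5.13, 6.96 and 5.30 CPM in WT at 3 mm (log2 0.86, SE 0.25, adjusted p = 0.0277), and the call was lost without tap replicate 1 (0.133) or 2 (0.0563) or WT replicate 1 (0.115) or 3 (0.101). LOC_Os07g05360 rose at 2 mm, and LOC_Os04g16680 at both lengths, at levels under 2 CPM in every library. PsaL (LOC_Os12g23200) was not called, with 3.78, 2.49 and 3.19 CPM in tap, against 6.74, 6.87 and 3.5 CPM in WT at 3 mm (log2 -0.85, adjusted p = 0.071) and 0.935, 0.824 and 1.45 CPM in tap, against 2.21, 1.46 and 2.31 CPM in WT at 2 mm (log2 -0.90, adjusted p = 0.104).

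Whether the difference of tap from WT depended on temperature was tested directly by the genotype by temperature interaction, the log2 difference of tap minus WT at high temperature less that at low temperature. It was positive and called for 22 of the 38 loci at 3 mm and negative for 1, where 26.4% of all loci were called, 14.3% as positive and 12% as negative. At 2 mm it was positive for 14 and negative for 2, where 26.8% of all loci were called, 13.2% as positive and 13.6% as negative. The medians were 1.16 at 3 mm and 0.87 at 2 mm, against 0.00 over all loci at both lengths. Of the positive interactions 11 were shared by the lengths, 50% of the list at 3 mm and 78.6% of that at 2 mm. Such sharing over all loci was not computed. With each library left out, 16 to 23 interactions were positive at 3 mm and 11 to 15 at 2 mm.

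By class, the positive interactions at 3 mm comprised 9 of 12 light-harvesting, 5 of 8 photosystem I, 2 of 4 photosystem II, 2 of 5 electron transport and 4 of 9 Calvin cycle loci. At 2 mm they comprised 5, 2, 1, 2 and 4 loci in the same order. They took several forms. At 3 mm, 15 of the 22 loci rose in tap at high temperature and were not called at low temperature, 4 rose at high and fell at low temperature, and 3 were called in neither comparison. At 2 mm the first 2 forms held 8 and 5 loci, and LOC_Os12g19470 was called as lower at low temperature alone.

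The opposite calls at both lengths were those of LOC_Os03g03720, LOC_Os06g01850 and LOC_Os07g38960. LOC_Os03g03720 had the largest interaction at 2 mm among members of at least 5 CPM (log2 3.5, SE 0.24, adjusted p = 8.99e-12), and it was 2.43 at 3 mm (SE 0.23, adjusted p = 4.15e-09). In tap this Calvin cycle locus lay at 26.4 to 31 CPM at 3 mm and high temperature and at 8.48 to 11.4 CPM at 3 mm and low temperature. In WT it lay at 12.5 to 15.9 CPM at high and 22.3 to 29 CPM at low temperature. It was thus higher at high temperature in tap and higher at low temperature in WT.

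For LOC_Os06g01850 the interaction was 1.56 at 3 mm (SE 0.21, adjusted p = 1.77e-06) and 1.78 at 2 mm (SE 0.21, adjusted p = 1.74e-07). Its levels in tap were 26.5, 22.6 and 23.8 CPM at high and 6.08, 5.95 and 6.09 CPM at low temperature at 3 mm. In WT they were 16.8, 16.4 and 15.3 CPM at high and 12.9, 13 and 9.74 CPM at low temperature. The gap between temperatures was thus wider in tap than in WT, in the same direction. Light-harvesting LOC_Os06g21590 had interactions of 2.36 at 3 mm (adjusted p = 0.000378) and 3.00 at 2 mm (adjusted p = 8.37e-05).

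LOC_Os05g48630, of photosystem I, had the second largest interaction at 3 mm among members of at least 5 CPM (log2 2.53, SE 0.40, adjusted p = 2.26e-05), with the largest that of light-harvesting LOC_Os01g41710 (log2 2.59, SE 0.73, adjusted p = 0.0146). LOC_Os01g41710 was called in neither comparison of tap with WT. It had 6.25, 10.9 and 8.38 CPM in tap, against 3.81, 3.90 and 3.15 CPM in WT at high temperature. At low temperature it had 9.13, 2.86 and 5.72 CPM in tap, against 18.9, 18.5 and 7.90 CPM in WT. PsaL (LOC_Os12g23200) was called at 3 mm (log2 1.33, SE 0.47, adjusted p = 0.036) and not at 2 mm (log2 1.28, adjusted p = 0.0833). Negative interactions were found for LOC_Os04g16680 at both lengths and for LOC_Os07g05360 at 2 mm, both below 1 CPM on average. The 1 negative call at 3 mm was lost when any library but tap replicate 2 at high temperature was left out, and the 2 at 2 mm became 1 without tap replicate 1 or 3 or WT replicate 2 at high temperature, or tap replicate 3 or WT replicate 1 at low temperature.

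**Figure D3:**
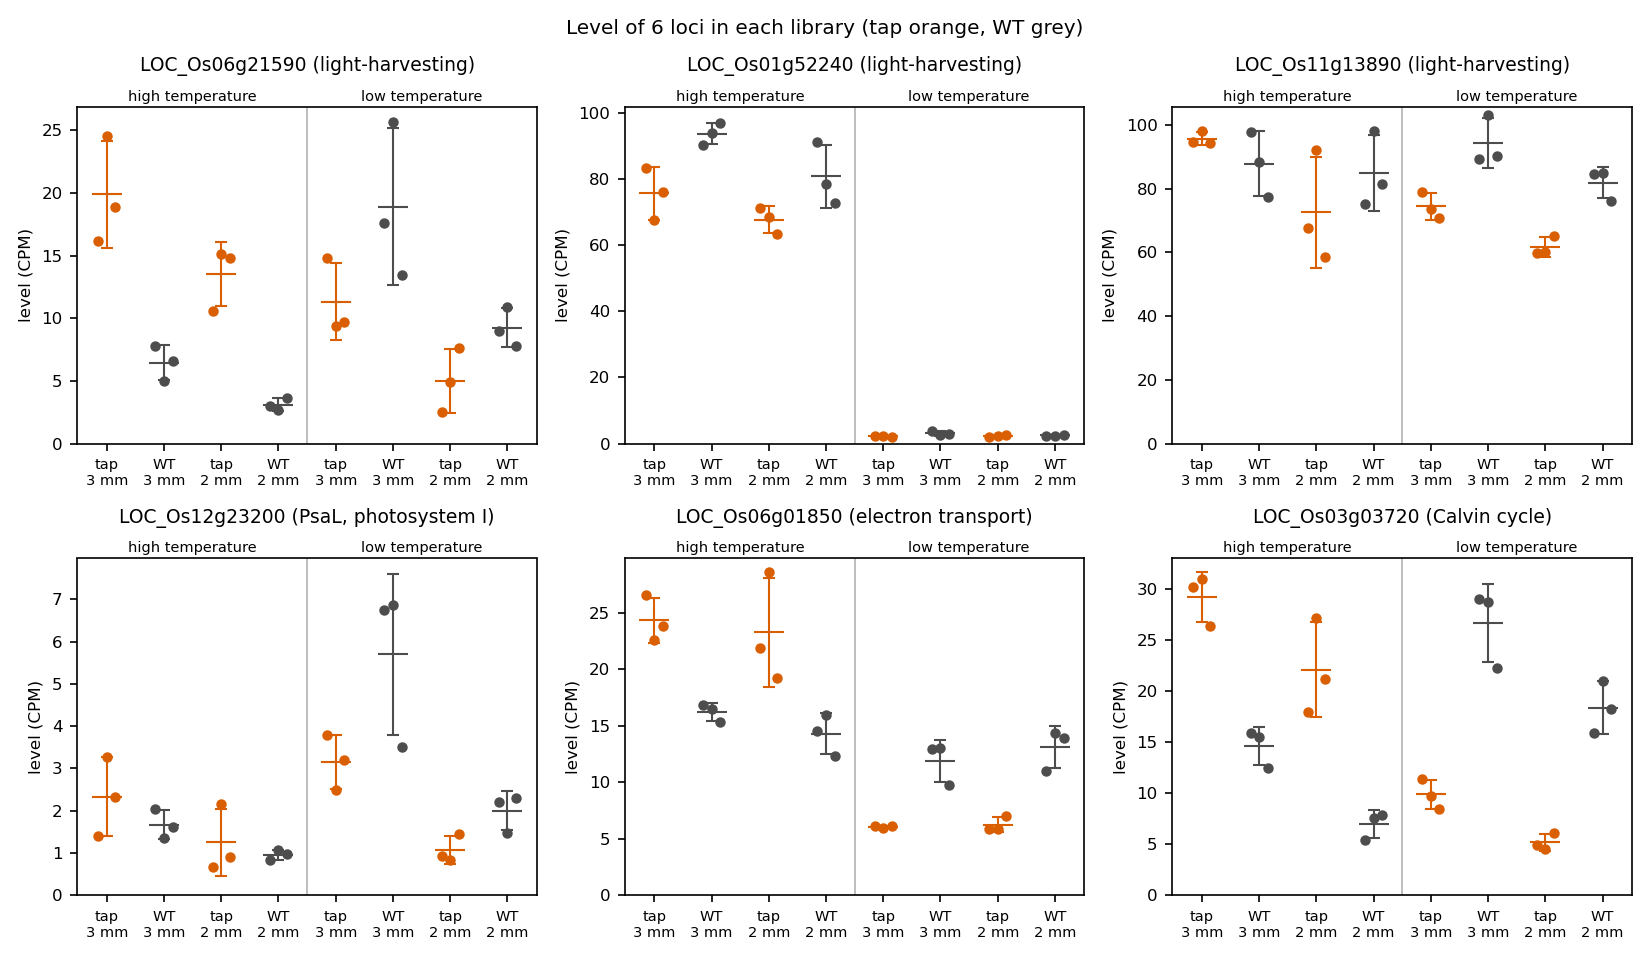
CPM in each library (points, with the mean and SD of each group as bars) for 6 loci on which the comparisons turn, by group, on axes that start at 0. By group mean, LOC_Os03g03720 lies highest in tap at high temperature and lowest in tap at low temperature at each length, and LOC_Os01g52240 lies between 63.4 and 97.0 CPM in all high-temperature libraries and between 1.96 and 3.76 CPM in all low-temperature libraries.

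The response to temperature was then compared within each genotype. In tap, 17 of the 38 loci were higher at high than at low temperature at 3 mm and 5 were lower, where 68.6% of all loci were called, 32.9% as higher and 35.7% as lower. At 2 mm in tap, 25 rose and 5 fell, where 69% of all loci were called, 32.5% as higher and 36.5% as lower. In WT the balance differed, with 7 higher and 22 lower at 3 mm, where 65.8% of all loci were called, 30.8% as higher and 35% as lower. At 2 mm in WT, 11 were higher and 9 lower, where 63.8% were called, 29.8% as higher and 34.1% as lower. Without WT replicate 1 at high temperature or WT replicate 3 at low temperature, the 7 higher loci in 3 mm WT became 4. Median log2 values of high against low temperature were 0.35 in tap and -0.78 in WT at 3 mm, and 1.03 in tap and 0.03 in WT at 2 mm. These comparisons share their libraries with those of tap against WT above and with the interaction.

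Between 63.8% and 69% of all loci were called for temperature, so the shares of members called, 57.9% in tap and 76.3% in WT at 3 mm and 78.9% in tap and 52.6% in WT at 2 mm, were on both sides of the background. The rows of the table had been selected on the low-temperature libraries, and 723 loci had 0 counts in every high-temperature library. The high- and low-temperature columns carry names in different styles, and temperature and a possible separate handling of the sets cannot be told apart. Scaling by library totals without TMM factors moved the median of all loci by more than 0.1, to between -0.22 and -0.17, against -0.05 to -0.04 with them. It changed the calls to 14 higher and 7 lower in tap and 4 higher and 23 lower in WT at 3 mm, and to 23 higher and 5 lower in tap and 10 higher and 12 lower in WT at 2 mm. Shares of all loci called under that scaling were not computed. The median of the members in WT at 2 mm changed sign, to -0.14.

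LOC_Os01g52240, the light-harvesting locus that fell in tap at high temperature, had the largest response to temperature among members of at least 5 CPM. In 3 mm tap it had 83.4, 67.6 and 76.3 CPM at high and 2.26, 2.35 and 2.11 CPM at low temperature, 33.8-fold higher (log2 5.08, SE 0.14, adjusted p = 4.69e-23). In 3 mm WT it had 90.5, 94.2 and 97.0 CPM at high and 3.76, 2.43 and 3.03 CPM at low temperature, 30.5-fold higher (log2 4.93, SE 0.13, adjusted p = 3.53e-23). At 2 mm the rises were 29.6-fold in tap and 33-fold in WT. The levels were tightly grouped within each temperature, and the interaction was not called at either length (log2 0.15 at 3 mm and -0.16 at 2 mm).

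In 3 mm WT, 9 of the 12 light-harvesting loci fell at high temperature, where 35% of all loci were called as lower. LOC_Os09g17740 fell most, with 17.9, 15.6 and 11.7 CPM at high and 39.4, 136 and 64.9 CPM at low temperature (log2 -2.41, SE 0.53, adjusted p = 0.000692). It fell in 3 mm tap too, with 22.2, 45.9 and 31.9 CPM at high and 134, 81.1 and 54.3 CPM at low temperature (log2 -1.43, SE 0.50, adjusted p = 0.0175), but this call was lost without tap replicate 1 of either temperature (adjusted p 0.0756 and 0.101). Its low-temperature libraries varied widely. LOC_Os04g38410 had 4.75, 5.38 and 6.78 CPM at high and 16.8, 19.99 and 14.9 CPM at low temperature in 2 mm WT (log2 -1.61, SE 0.24, adjusted p = 3.85e-06), and fell at 3 mm as well (log2 -1.70). In tap it was not called at either length (log2 -0.48 at 3 mm and -0.09 at 2 mm), and its interaction was called at both lengths (log2 1.22 at 3 mm and 1.52 at 2 mm).

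Without LOC_Os01g52240, the summed level of the light-harvesting loci in WT at 3 mm was 171 ± 22.8 CPM at high and 343 ± 113 CPM at low temperature, a ratio of 0.498 with no overlap between libraries. In tap at 3 mm it was 307 ± 59.8 CPM at high and 310 ± 85.0 CPM at low temperature, a ratio of 0.991. With that locus the ratios were 0.765 in WT and 1.23 in tap, both with overlap.

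Photosystem I loci went in both directions with temperature, and at 3 mm 5 of the 8 in tap and 4 in WT were not called. Of all loci, 68.6% in tap and 65.8% in WT were called at that length. LOC_Os04g33830 was higher at high temperature in WT at 2 mm (log2 1.19) and lower in WT at 3 mm (log2 -0.75). LOC_Os05g48630 was higher in all 4 comparisons, with log2 3.25 in tap and 0.72 in WT at 3 mm, and 3.08 in tap and 1.12 in WT at 2 mm. LOC_Os03g56670 was lower in tap at 2 mm, with 4.91, 8.01 and 5.54 CPM at high and 11.5, 8.42 and 11.9 CPM at low temperature (log2 -0.79, SE 0.19, adjusted p = 0.000561), and in WT at both lengths (log2 -1.5 at 3 mm and -1.48 at 2 mm). PsaL (LOC_Os12g23200) fell at high temperature in WT, where it had 2.03, 1.35 and 1.60 CPM at high and 6.74, 6.87 and 3.5 CPM at low temperature at 3 mm (log2 -1.78, SE 0.33, adjusted p = 3.02e-05). It fell in WT at 2 mm too (log2 -1.06, adjusted p = 0.0156). In tap it was not called (log2 -0.45 at 3 mm and 0.21 at 2 mm).

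In photosystem II, LOC_Os07g04840 rose with temperature in tap (log2 0.58 at 3 mm and 1.02 at 2 mm) and fell in WT at 3 mm (log2 -0.59). Among electron transport loci, LOC_Os08g01380 was higher at high temperature in all 4 comparisons, with log2 1.51 in tap and 1.02 in WT at 3 mm, and 2.20 in tap and 2.34 in WT at 2 mm. LOC_Os06g01210 fell in WT at both lengths (log2 -1.33 at 3 mm and -1.10 at 2 mm) and was not called in tap. The interaction of LOC_Os06g01210 was called at both lengths (log2 1.60 at 3 mm and 1.54 at 2 mm).

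Calvin cycle loci gave large values in both directions. LOC_Os12g17600 and LOC_Os12g19381 rose at high temperature in all 4 comparisons, with log2 1.89 and 1.02 in tap and 0.96 and 1.21 in WT at 3 mm. LOC_Os02g47020 and LOC_Os03g16050 fell in all 4. LOC_Os02g47020 had 0.496, 0.331 and 0.362 CPM at high and 1.34, 2.54 and 2.48 CPM at low temperature in 3 mm tap, 5.25-fold lower. In 3 mm WT it had 1 count at high and 158 counts at low temperature, a ratio of 143 with an exact 95% counting interval of 25.3 to 5690. LOC_Os12g19470 rose in tap at both lengths. At 2 mm it was 8.84-fold higher at high temperature against the same floor of 3 counts. That is a lower bound if the 24 counts at high temperature are taken as exact.

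**Figure D4:**
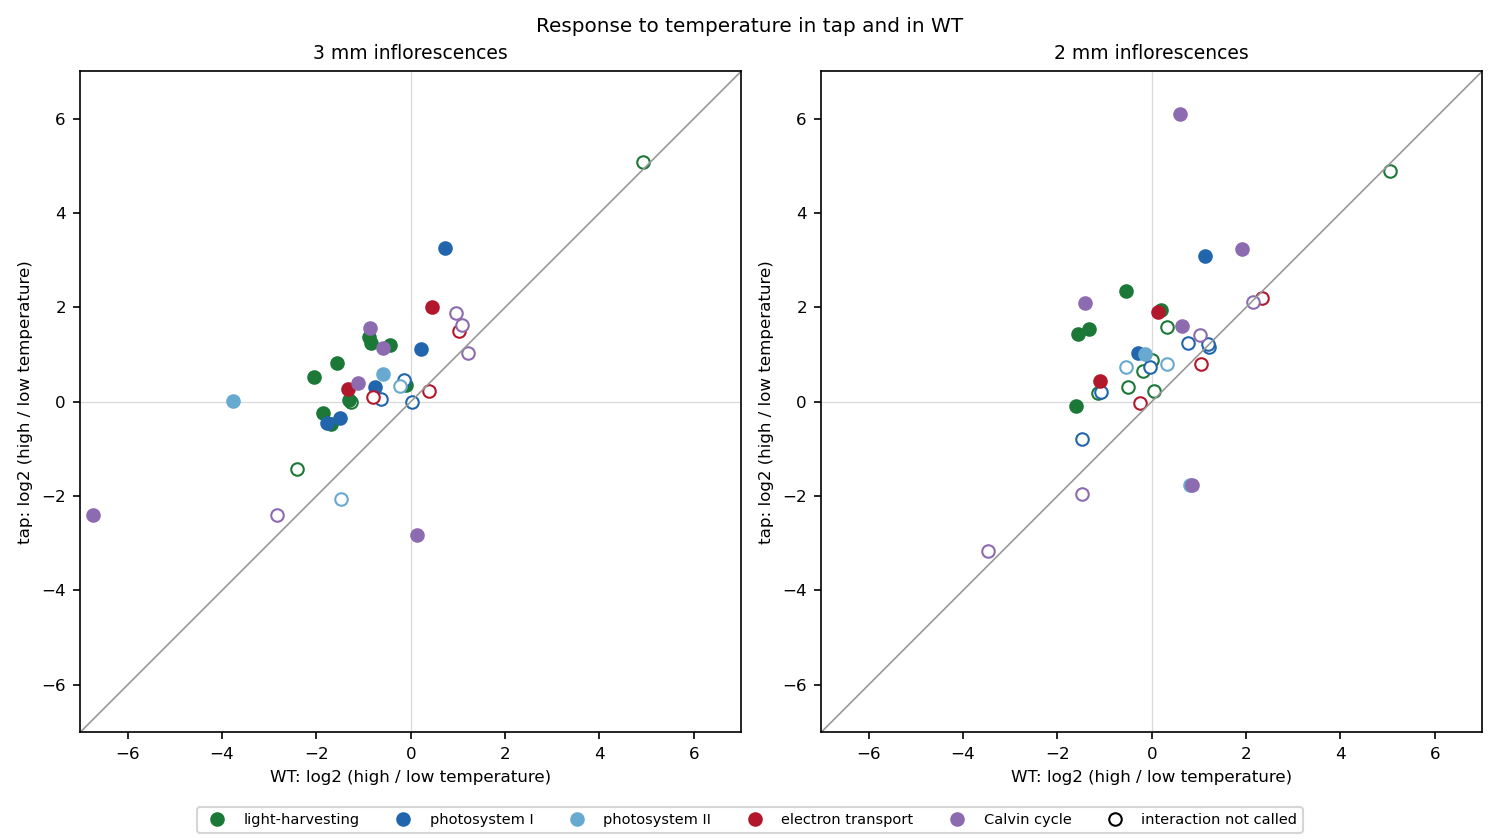
Fitted log2 difference of high minus low temperature in tap (vertical axis) against that in WT (horizontal axis) for the 38 tested loci, coloured by class and filled where the interaction was called, at 3 mm and at 2 mm. LOC_Os01g52240 lies at 5.08 in tap and 4.93 in WT at 3 mm, and 33 of the 38 loci at 3 mm and 30 at 2 mm lie above the diagonal, where the value is higher in tap. These are the loci with a positive interaction value, called or not. The median interaction over all loci was 0.0035 at 3 mm and -0.0024 at 2 mm. The topmost point at 2 mm, LOC_Os12g19470, and the leftmost at 3 mm, LOC_Os02g47020, rest on groups with 0 counts and 1 count.

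The comparison of 3 mm with 2 mm inflorescences asks how these transcripts change as the inflorescence grows. At low temperature, 8 of the 38 loci were called in tap, all higher at 3 mm, where 1.33% of all loci were called, 0.558% as higher and 0.774% as lower. In WT 4 were called, all higher at 3 mm, where 0.368% of all loci were called, 0.22% as higher and 0.148% as lower. All 3 libraries at 3 mm lay above all 3 at 2 mm for 30 of the 38 loci in tap and 22 in WT, where 10.6% and 7.23% of all loci did so. Median log2 values at low temperature were 0.86 in tap and 0.66 in WT. In tap at high temperature 2 loci were called, both higher, where 2.21% of all loci were called, 1.44% as higher and 0.774% as lower. In WT, 2 rose and 2 fell, where 6.37% were called, 2.65% as higher and 3.72% as lower. The medians at high temperature were 0.40 in tap and 0.07 in WT.

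The loci higher at 3 mm at low temperature were of several classes. LOC_Os04g33830, of photosystem I, rose in both genotypes (log2 1.35 in tap and 1.84 in WT), as did light-harvesting LOC_Os02g10390 (log2 1.23 in tap and 1.30 in WT). PsaL (LOC_Os12g23200) rose in tap, with 3.78, 2.49 and 3.19 CPM at 3 mm and 0.935, 0.824 and 1.45 CPM at 2 mm (log2 1.56, SE 0.36, adjusted p = 0.0187). In WT it had 6.74, 6.87 and 3.5 CPM at 3 mm and 2.21, 1.46 and 2.31 CPM at 2 mm (log2 1.51, SE 0.32, adjusted p = 0.0269). Its libraries did not overlap between lengths in either genotype. The call in WT was lost without replicate 1 (adjusted p 0.0952) or 2 (0.144) at 3 mm. It was also lost without replicate 1 (0.0749), 2 (0.129) or 3 (0.142) at 2 mm. The call of PsaL in tap, and those of LOC_Os04g33830 and LOC_Os02g10390, were not followed singly with libraries left out.

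LOC_Os07g37240 had the largest difference between lengths among members of at least 5 CPM in tap at low temperature, with 9.77, 3.23 and 6.33 CPM at 3 mm and 1.31, 1.69 and 3.13 CPM at 2 mm (log2 1.66, SE 0.40, adjusted p = 0.0428). That call was lost without the low-count filter (0.0593), in the 6 compared libraries alone (0.196), and without replicate 1 (0.241) or 3 (0.1) at 3 mm or 1 (0.253) or 2 (0.178) at 2 mm. The rest of the 8 were LOC_Os08g44680, LOC_Os07g04840, LOC_Os12g17600 and LOC_Os03g03720, with log2 values from 0.81 to 1.58. Counts in this comparison moved with the libraries used. In tap at low temperature 1 locus was higher without replicate 1 at 2 mm and 3 were higher without replicate 2 at 2 mm or replicate 1 or 3 at 3 mm. In WT it was 1 without replicate 2 of either length and 0 without replicate 3 at 2 mm. DESeq2 called 14 loci as higher in tap at low temperature, and a model of the 6 compared libraries called 16. Shares of all loci called in those runs were not computed, so these counts have no background.

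At high temperature LOC_Os05g48630, of photosystem I, was higher at 3 mm in both genotypes. It had 12.3, 17.6 and 10.8 CPM at 3 mm and 5.15, 8.44 and 7.36 CPM at 2 mm in tap (log2 0.96, SE 0.25, adjusted p = 0.0351), and 6.29, 4.47 and 4.59 CPM at 3 mm and 1.79, 2.41 and 2.72 CPM at 2 mm in WT (log2 1.15, SE 0.28, adjusted p = 0.0111). The call in tap was lost without replicate 1 (0.104), 2 (0.0957) or 3 (0.0523) at 3 mm or 1 (0.147) or 3 (0.127) at 2 mm, and with the 6 compared libraries alone (0.11). That in WT was lost without replicate 1 at 3 mm (0.0702) or at 2 mm (0.0536). LOC_Os08g44680 was the other locus to rise in tap (log2 0.67). In WT, LOC_Os03g03720 rose (log2 1.08, adjusted p = 0.000138). LOC_Os04g38600 fell in WT, with 3.04, 2.55 and 3.46 CPM at 3 mm and 5.01, 10.8 and 6.73 CPM at 2 mm (log2 -1.32, SE 0.31, adjusted p = 0.0108), a call lost without WT replicate 2 at 3 mm (0.0728) or at 2 mm (0.1). LOC_Os08g01380 fell as well (log2 -0.99). The 2 loci higher in tap became 0 without any 1 of the 3 mm libraries or without replicate 1 or 3 at 2 mm, and 6 without replicate 2 at 2 mm. In WT the 2 higher loci became 1 without replicate 1 of either length, and the 2 lower loci became 1 without replicate 2 at 3 mm and 0 without replicate 2 at 2 mm.

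Over the 8 groups, 3 mm tap at high temperature had the highest mean for 20 of the 38 loci, followed by 3 mm WT at low temperature with 6 and 2 mm tap at high temperature with 5. The lowest mean was most often that of 2 mm tap at low temperature, for 13 loci, then of 3 mm WT and of 2 mm WT at high temperature, for 8 each. Both the most frequent highest group and the most frequent lowest group were of tap. This ranking was not computed over all loci, so these counts have no background.

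In several groups many members had their highest value in the same library. Replicate 2 had the highest value of its group for 32 of the 38 loci in 3 mm tap at high temperature, where it was highest for 39.9% of all loci, and for 26 of 38 in 2 mm tap at high temperature, where it was highest for 36.8%. At low temperature, replicate 1 was highest for 28 of 38 loci in 3 mm tap (33.6% of all loci), replicate 2 for 26 in 3 mm WT (32.3%) and replicate 3 for 28 in 2 mm tap (30.4%). In the WT groups at high temperature the leading library held 22 loci at 3 mm (37.4% of all loci) and 17 at 2 mm (30.9%), and in 2 mm WT at low temperature it held 17 (36.6%), nearer to the shares over all loci. Lowest values gathered in single libraries of these WT groups too. Replicate 3 was lowest for 24 loci in 3 mm WT at high temperature and for 23 in 2 mm WT at low temperature. Replicate 1 was lowest for 20 in 2 mm WT at high temperature. Shares of lowest values over all loci were not computed. The members are therefore not independent of each other.

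**Figure D5:**
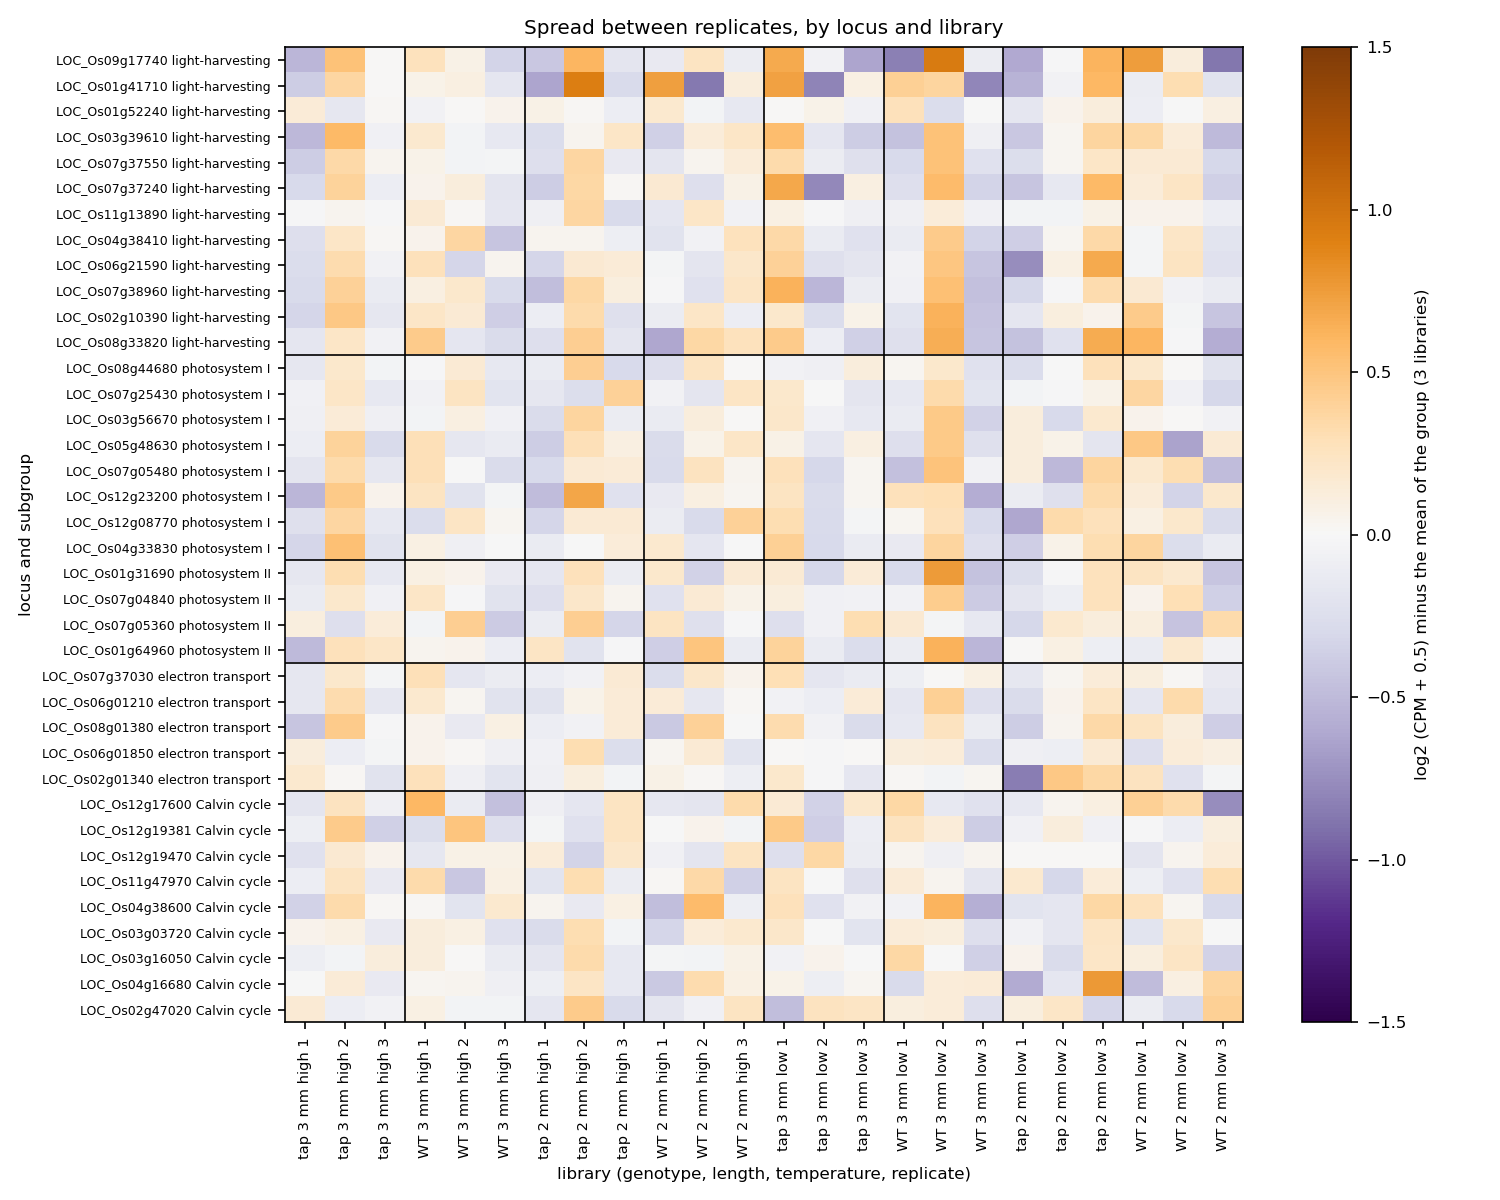
Deviation of each library from its group mean as log2(CPM + 0.5) (colour) for the 38 tested loci (rows, by class) in the 24 libraries (columns, by group). In replicate 2 of 3 mm tap at high temperature most rows share a colour, and 32 of 38 loci had their highest value of the group there.

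The summed level of all 38 loci spanned 648 to 841 CPM over the 3 mm tap libraries and 412 to 486 CPM over the 3 mm WT libraries of high temperature. Over those of low temperature it spanned 444 to 632 CPM in 3 mm tap and 468 to 754 CPM in 3 mm WT, the group with the widest span of the 8. Of the 38 loci, 33 had a mean of at least 1 CPM over the 24 libraries. With these alone the counts of loci that rose in tap at high temperature were 24 at 3 mm and 20 at 2 mm, and those of positive interactions 21 at 3 mm and 13 at 2 mm. This restriction was added after the data were seen.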

How the data were processed

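The authors deposited whole-number read counts for each locus in 24 libraries. An RNeasy kit for RNA and a SMARTER mRNA-Seq kit for libraries are named per the labels' protocols. Trimmomatic, HISAT2, HTSeq and the build IRGSP-1.0 are named per the submitters' processing notes. The sources used here give no versions, annotation release or strand setting, so reads of overlapping, antisense and near-identical loci could not be told apart. Every locus summed to at least 10 counts over the low-temperature libraries, while 723 had 0 counts in all high-temperature libraries, so rows had been selected on the low-temperature libraries. A further 70 loci lacked high-temperature values, which left 26410 loci. Columns named iHT were assigned to tap at high temperature by inference, the remaining ones at that temperature being named WT.

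Counts were fitted with edgeR 4.0.16 (limma 3.58.1, R 4.3.3): filterByExpr (minimum count 10, 23658 loci kept), TMM factors, robust quasi-likelihood fit with a mean for each of 8 groups and 16 residual degrees of freedom, and 14 contrasts, each adjusted over all loci. The SE is the log2 value divided by the square root of F, and log2 values carry a prior count of 0.125. Groups with 0 counts were compared against a group floor of 3 counts, and groups with 1 to 3 counts by exact 95% binomial intervals, which cover counting error only. Depth was 19819257 to 21305381 counts a library. All groups shared an estimate of spread, though replicates did not spread alike. The mean chi-square per locus of replicate pairs ran from 5.94 to 30.8 at high temperature and from 3.39 to 13.5 at low temperature. Whether this affected the number of calls at each temperature was not tested. Alternatives were RLE factors, library totals, no filter, DESeq2 1.42.0, the compared libraries alone, a replicate block and each library left out.

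Library values are given for PsaL, for the locus with the highest mean in each class, and for called loci of at least 5 CPM with the largest log2 values: 2 per direction for tap against WT and the interactions, and 1 for temperature and length. They are also given for a locus that could not be tested with the rest. Others named with library values were added after their values were seen. The members and lists were chosen with earlier results of these data known. The table of RefSeq genes matched 0 of the 26480 identifiers, so no gene name, position or sequence is given.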

Additional observations from a re-analysis of the deposited data

Results flagged for a closer look

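For each locus named here the difference of tap from WT was not the same at high and at low temperature, by the test of the genotype by temperature interaction with edgeR (adjusted p under 0.05 over all 23658 loci). The value in parentheses is the log2 difference of tap minus WT at high temperature less that at low temperature.

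At 3 mm the interaction was positive for 22 of the 38 loci. Among the light-harvesting loci these were LOC_Os01g41710 (2.59), LOC_Os07g37550 (1.62), LOC_Os07g37240 (2.24), LOC_Os11g13890 (0.46), LOC_Os04g38410 (1.22), LOC_Os06g21590 (2.36), LOC_Os07g38960 (2.08), LOC_Os02g10390 (1.35) and LOC_Os08g33820 (1.63). Among the photosystem I loci these were LOC_Os08g44680 (0.89), LOC_Os03g56670 (1.15), LOC_Os05g48630 (2.53), LOC_Os12g23200 (1.33) and LOC_Os04g33830 (1.07). Among the photosystem II loci these were LOC_Os07g04840 (1.18) and LOC_Os01g64960 (3.78). Among the electron transport loci these were LOC_Os06g01210 (1.60) and LOC_Os06g01850 (1.56). Among the Calvin cycle loci these were LOC_Os11g47970 (1.73), LOC_Os04g38600 (1.52), LOC_Os03g03720 (2.43) and LOC_Os02g47020 (4.33). At 3 mm it was negative for LOC_Os04g16680 (-2.95). The values of LOC_Os01g64960 and LOC_Os02g47020 at 3 mm rest on 2 counts and 1 count in WT at high temperature.

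At 2 mm the interaction was positive for 14 of the 38 loci. Among the light-harvesting loci these were LOC_Os07g37240 (2.91), LOC_Os04g38410 (1.52), LOC_Os06g21590 (3.00), LOC_Os07g38960 (2.87) and LOC_Os08g33820 (1.74). Among the photosystem I loci these were LOC_Os07g25430 (1.32) and LOC_Os05g48630 (1.96). In the photosystem II class it was LOC_Os07g04840 (1.17). Among the electron transport loci these were LOC_Os06g01210 (1.54) and LOC_Os06g01850 (1.78). Among the Calvin cycle loci these were LOC_Os12g17600 (1.33), LOC_Os12g19470 (5.49), LOC_Os11g47970 (0.95) and LOC_Os03g03720 (3.5). At 2 mm it was negative for LOC_Os07g05360 (-2.58) and LOC_Os04g16680 (-2.63). That of LOC_Os12g19470 rests on 0 counts in tap at low temperature, so it depends on the prior count of the fit. Both loci with negative values averaged below 1 CPM over the 24 libraries. Leaving out single libraries left 16 to 23 positive interactions at 3 mm and 11 to 15 at 2 mm.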

How the results depend on the processing

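None of the 30 single-locus values followed changed sign under any alternative run. For tap against WT at high temperature, the 25 higher loci at 3 mm and the 20 at 2 mm stayed within 1.5 times under RLE factors, library totals, no low-count filter, DESeq2, the compared libraries alone and each library left out. The single lower locus at 2 mm became 0 under RLE factors, library totals, no low-count filter, the compared libraries alone and DESeq2. Library totals gave 4 higher loci for temperature in WT at 3 mm. Without the low-count filter the negative interaction at 3 mm became 0, and 1 locus was higher at 3 mm than at 2 mm in tap at high temperature. For 3 mm against 2 mm, the compared libraries alone gave 0 higher loci in tap and 5 in WT at high temperature, and 16 in tap and 2 in WT at low temperature, and DESeq2 gave 4 in tap and 4 in WT at high temperature and 14 in tap at low temperature. Restricting the members to a mean of at least 1 CPM, chosen after seeing the data, left 1 higher locus for tap at 2 mm and low temperature, 2 lower for temperature in tap at 3 mm and 2 at 2 mm, and 0 negative interactions at both lengths. The cause was not tested, and shares of all loci called were not computed for the alternative runs.

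With each library left out in turn, counts of higher and of lower loci moved as follows. For tap against WT they were 20 to 25 and 0 to 1 at 3 mm and high temperature, 17 to 20 and 0 to 1 at 2 mm and high temperature, 0 to 6 and 2 to 6 at 3 mm and low temperature, and 1 to 3 and 2 to 8 at 2 mm and low temperature. For the interaction they were 16 to 23 and 0 to 1 at 3 mm and 11 to 15 and 1 to 2 at 2 mm. For temperature they were 12 to 17 and 4 to 6 in 3 mm tap, 4 to 7 and 17 to 23 in 3 mm WT, 20 to 26 and 4 to 5 in 2 mm tap, and 9 to 11 and 7 to 10 in 2 mm WT. For length at high temperature the higher loci numbered 0 to 6 in tap and 1 to 3 in WT, with 0 to 2 lower in WT, and at low temperature 1 to 8 in tap and 0 to 6 in WT. A group left with 2 libraries shared the spread of all groups.

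Whether equal replicate numbers pair the libraries was checked by the correlation of their deviations from the group means, which ran from -0.13 to 0.16, and in 0 of 12 comparisons was every such correlation above 0.1. With the replicate number as a block, the counts of loci called stayed within 1.5 times in all comparisons, and of the 30 single-locus values followed, 1 lost its call, the higher level of LOC_Os07g37240 at 3 mm than at 2 mm in tap at low temperature (log2 1.67, adjusted p = 0.0597). Depth limits the 5 loci that averaged under 1 CPM most.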
